A study of Mus musculus with 12 samples.

Results

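Label retention separates stem cells by how often they have divided, and the comparison described here is the difference between label-retaining and dividing haematopoietic stem cells (HSCs) that mouse bone marrow of 2 genotypes had in common. For each gene the GFPhigh minus GFP- difference in log2 signal was taken within wild-type cells and within Nras mutant cells, and the 2 differences were averaged, which sets 6 GFPhigh samples against 6 GFP- samples and uses all 12 arrays of the series. The samples formed 4 groups of 3 biological replicates: wild-type GFP-, wild-type GFPhigh, NrasG12D/+ GFP- and NrasG12D/+ GFPhigh, the mutant groups being heterozygous for the oncogenic G12D allele. All mice drank doxycycline for 6 weeks, it was then withdrawn, and HSCs were sorted 12 weeks later, so that both genotypes and both gates share the pulse and the chase. The labels call GFP- cells cycling and GFPhigh cells quiescent. The transgene that carries GFP, the driver of the Nras allele, the surface markers of the gate, the age and sex of the mice and any pooling of animals are not given in the sources used here. Total RNA was hybridised to an oligonucleotide array, and signals are in arbitrary units scaled so that the trimmed mean of every array is 500. Of 18193 genes with a probe set of their own, 12083 passed a filter on low signal and were tested. A gene is called agreeing below when its 3 GFPhigh signals all lay above, or all lay below, its 3 GFP- signals in wild-type and again, the same way, in Nras cells. By that rule 149 of 12083 genes agreed, 69 of them higher and 80 lower in GFPhigh cells.

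In a label-retention assay, cells are loaded with a stable label, commonly a histone fused to GFP, while the transgene is switched on. Once it is off, each division dilutes the label, so a cell that still carries it after a long chase has divided rarely. In bone marrow such cells sit among the long-term HSCs. Quiescent HSCs are known for cyclin-dependent kinase (CDK) inhibitors such as p57, for repressors such as Gfi1 that restrain proliferation, for an active imprinted gene network and for low biosynthesis. A cell entering division loads the MCM helicase onto replication origins, makes deoxynucleotides, copies DNA and chromatin at the fork, and then expresses kinases and spindle proteins for mitosis.

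The arrays were uneven. Median signal ran from 44 to 130 units over the 12 arrays, and the ratio of 3′ to 5′ Gapdh signal, which is higher where RNA is more degraded, was 2.83 to 7.28 in Nras GFPhigh arrays and 2.57 to 4.48 in the others. The same ratio for beta-actin did not differ in this way, at 0.83 to 1.01 in Nras GFPhigh arrays and 0.9 to 1.09 in the others. The scaled signal of the CreX hybridisation control was 15416 to 28340 units in Nras GFPhigh arrays and 9325 to 17345 units in the others. Xist, transcribed from the inactive X chromosome, read 91.8 to 205 units in replicate 3 of every group and 5773 to 11481 units in replicates 1 and 2, and Y-linked Eif2s3y read the reverse. The Nras probe set does not tell the alleles apart: it read 1250 to 3374 units in wild-type and 2410 to 4275 units in Nras arrays, so it is no check on the genotype labels. All 7 HSC genes matched (Kit, Slamf1, Procr, Hlf, Mecom, Fgd5 and Ptprc) were present, with summed signals of 22313 to 31387 units in GFP- and 28427 to 40050 units in GFPhigh arrays. Neutrophil granule genes were uneven between arrays. The 14 granulocyte markers summed to 57120 and 71255 units in Nras GFPhigh replicates 1 and 2, and to 13251 units in replicate 3. They summed to 4316 to 11033 units in Nras GFP- arrays and 3712 to 17907 units in wild-type arrays. Nras GFPhigh replicate 3 thus lay within the wild-type range. The part of RNA quality, sex or granulocyte RNA in the results below was not tested.

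The wild-type and Nras differences, which share no sample, were weakly related over all tested genes. Pearson's r was 0.15 and Spearman's rho 0.14 across the 12083 genes, which are not independent replicates, and 6698 genes (55.4%) had the same sign in both, a share that was 49.5% after each array was scaled to a common median. Within replicates 1 and 2, which share the Xist pattern, r was 0.09 and 54.4% had the same sign; replicate 3 leaves 1 array per group. The share was larger among genes with bigger differences. Of the 266 genes (2.2%) with unadjusted p under 0.05 in wild-type, 192 (72.2%) had the same sign in Nras cells, and of 1470 such genes (12.2%) in Nras cells, 946 (64.4%) had the same sign in wild-type. Both p-values were under 0.05 for 66 genes, of which 49 (74.2%) went the same way. Among genes whose groups were apart in wild-type and apart in Nras cells, 149 agreed (1.23% of tested genes) and 60 went opposite ways (0.497%). After each array was scaled to a common median 55 of the 149 still agreed, and after quantile normalisation 106 did. Within 1 genotype, groups failed to overlap in the higher direction for 641 genes (5.3%) in wild-type and 810 (6.7%) in Nras cells, and in the lower direction for 702 (5.81%) and 750 (6.21%).

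**Figure D1:**
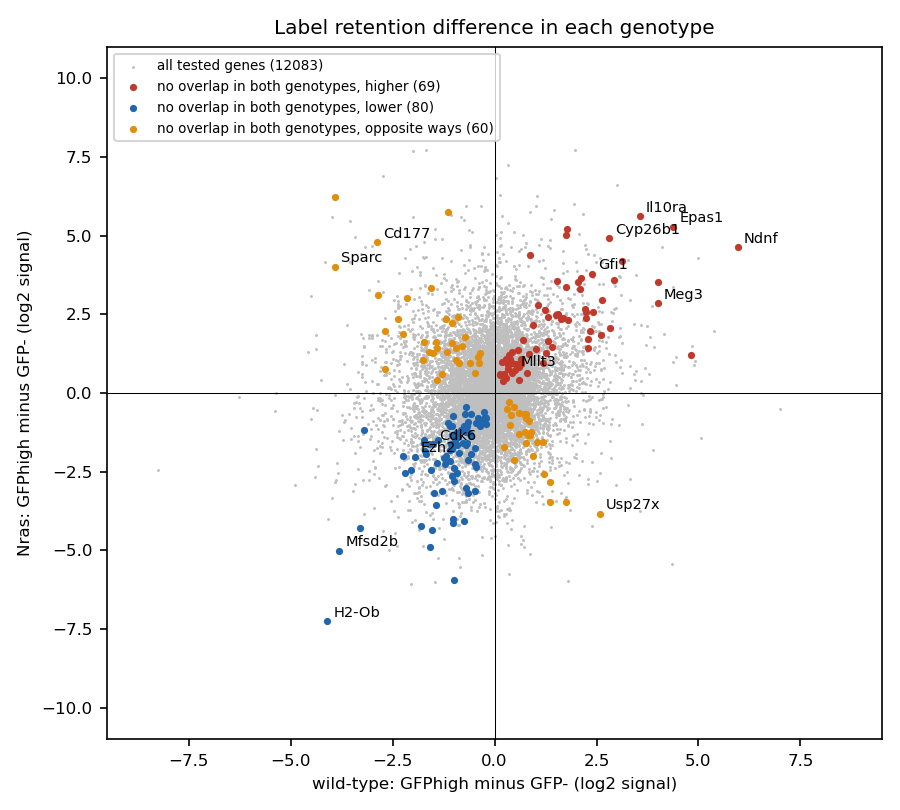
Each point is 1 of the 12083 tested genes, with its GFPhigh minus GFP- difference in log2 signal in wild-type on the x axis and in Nras cells on the y axis; colours mark the 69 agreeing higher, 80 agreeing lower and 60 opposite genes. Most genes scatter round 0 without a clear diagonal, and Ndnf, Il10ra and Epas1 at the upper right and H2-Ob and Mfsd2b at the lower left are far from 0 in both genotypes.

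No gene passed an adjusted p of 0.05 in the average comparison by limma with Benjamini-Hochberg adjustment (0 of 12083, 0%). At an unadjusted p under 0.05 there were 527 genes higher (4.36%) and 545 lower (4.51%) in GFPhigh cells. When each array was scaled to a common median these became 235 higher and 683 lower, so the balance of directions depends on the scaling (49.2% of these genes were higher before it and 25.6% after). Under limma's array weights, which count uneven arrays less, 8 genes passed: Il10ra, Mllt3, Cyp26b1, Rian, Peg3, Ndnf and Epas1 were higher and H2-Ob lower, with adjusted p from 0.0315 to 0.049. Without Nras GFPhigh replicate 3, 16 genes passed. Genes named below are therefore described by their levels, their differences with standard errors (SE) and unadjusted p-values, and none is a call at the adjusted threshold unless the array weights are named.

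The 69 genes that agreed as higher (0.571% of tested genes) had average differences of 0.30 to 5.30 on the log2 scale, with a median of 1.86, and 59 of them had a mean of at least 200 units over the 6 GFPhigh arrays. Of these 59, the 12 of smallest p that carry gene names ranged from secreted and receptor proteins to enzymes and repressors. They are given by role, with the signals of replicates 1, 2 and 3 in that order and GFP- values set against GFPhigh values. Lack of overlap in both genotypes defines the agreeing genes, here and below, and p ranked those named, so neither is further support for them.

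The secreted and surface proteins were Ndnf, Il10ra, Timp3 and Ifitm1. Ndnf, a secreted glycoprotein named as a neurotrophic factor, read 25, 179 and 9.6 units in wild-type GFP- and 3271, 3329 and 957 in wild-type GFPhigh arrays. In Nras cells it read 16.6, 94.1 and 135 units in GFP- and 1175, 1964 and 1412 in GFPhigh arrays. Every GFPhigh array thus stood far above every GFP- array, and the average difference was 5.30 ± 0.78 on the log2 scale (SE, unadjusted p = 1.3e-05, limma adjusted p = 0.0754). Il10ra, the ligand-binding chain of the interleukin 10 receptor, was near the floor of the array in GFP- cells, at 9, 15.3 and 9.3 units in wild-type and 8.7, 8.2 and 4.2 in Nras arrays. It read 88.8, 257 and 92.9 units in wild-type GFPhigh and 258, 853 and 164 in Nras GFPhigh arrays. Its difference of 4.59 ± 0.65 depends on those low values: with 100 units added to every signal before the log it was 1.57, while that of Ndnf was 3.53 and that of Timp3 2.07. The other Ndnf probe set differed less, the 2 spanning 1.18 to 5.30. Timp3, a secreted inhibitor of metalloproteinases, read 249 to 512 units in wild-type GFP- and 615 to 2295 in GFPhigh arrays, and 7.1 to 39.5 against 194 to 1381 units in Nras arrays. Its difference was 1.77 in wild-type and 5.22 in Nras cells, with an interaction (Nras minus wild-type) of 3.45 (95% interval 0.62 to 6.28). Ifitm1, an interferon-inducible membrane protein abundant in HSCs, read 6515, 8579 and 8122 units in wild-type GFP- and 10256, 11207 and 8889 in GFPhigh arrays. The Nras arrays read 4396, 4970 and 4694 against 12732, 9023 and 8331 units. This gene is far above background on every array, and its average difference was 0.73 ± 0.13. The size was unequal, at 0.39 in wild-type and 1.07 in Nras cells, with an interaction of 0.68 (95% interval 0.14 to 1.22).

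Transcriptional regulators included Gfi1, Mllt3 and Epas1. Gfi1, a zinc finger repressor that restrains HSC proliferation, read 736, 305 and 2195 units in wild-type GFP- and 4324, 4454 and 3700 in wild-type GFPhigh arrays. Nras signals were 80.8, 403 and 720 against 5204, 4314 and 2836 units. GFPhigh levels of the 2 genotypes were alike in size, the lowest of the 6 being above the highest GFP- array, and the average difference was 3.10 ± 0.57. Mllt3, a subunit of transcription elongation complexes that maintains HSCs, read 5500, 5573 and 5823 against 8271, 7905 and 7586 units in wild-type. In Nras cells it read 7078, 5274 and 5357 against 10170, 10679 and 8538 units. The difference was small and even, 0.61 ± 0.11, at 0.49 in wild-type and 0.74 in Nras cells, and its adjusted p under array weights was 0.0315. Epas1, the hypoxia-inducible factor HIF-2 alpha, read 102, 78.1 and 61.5 against 3190, 888 and 1571 units in wild-type. Its Nras signals were 16.3, 17.1 and 1.2 against 243, 1766 and 46.4 units, so that the lowest Nras GFPhigh array lay under every wild-type GFP- array. Its average difference of 4.84 ± 0.93 was 2.66 with 100 units added, and its other probe set gave 0.32.

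Enzymes and signalling proteins made up the rest. Cyp26b1, which breaks down retinoic acid, read 562, 153 and 408 units in wild-type GFP- and 2192, 4543 and 1218 in GFPhigh arrays. The mutant arrays read 118, 25.7 and 61.8 against 3731, 1076 and 1330 units, an average difference of 3.87 ± 0.59. The lowest of the 6 GFPhigh arrays, 1076 units, was above the highest GFP- array, 562 units. Plk2, a polo-like kinase induced by p53, read 65.8 to 238 units in wild-type GFP- and 821 to 1703 in GFPhigh arrays, and 25 to 310 against 1158 to 2287 in Nras arrays (3.25 ± 0.67). Its other probe set went the opposite way, at -1.22. Slfn2, a Schlafen protein known to keep T cells quiescent, read 145 to 277 against 793 to 994 units in wild-type and 51.2 to 111 against 237 to 851 units in Nras arrays (2.45 ± 0.51). Sult1a1, a phenol sulfotransferase, read 550 to 2134 against 3552 to 4615 units in wild-type and 512 to 1918 against 2602 to 5590 units in Nras arrays (2.06 ± 0.42).

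Meg3, the remaining gene of the 12, and Cdkn1c are both imprinted and both expressed from the maternal chromosome. Meg3, a long non-coding RNA, read 48.3, 128 and 307 against 1107, 2417 and 2935 units in wild-type. In Nras cells it read 132, 235 and 379 against 1102, 1856 and 2161 units, and the average difference was 3.43 ± 0.55. No GFP- array of either genotype reached the lowest GFPhigh array, and the lowest GFPhigh arrays of wild-type and Nras cells were alike. The 11 Meg3 probe sets gave differences from 0.15 to 5.11, all of the same sign. Cdkn1c, which encodes the CDK inhibitor p57, read 278, 538 and 231 against 1521, 2694 and 1012 units in wild-type and 203, 484 and 799 against 877, 1502 and 2103 units in Nras arrays (2.01 ± 0.49, unadjusted p = 0.00127). Its lowest Nras GFPhigh array was just above the highest Nras GFP- array.

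**Figure D2:**
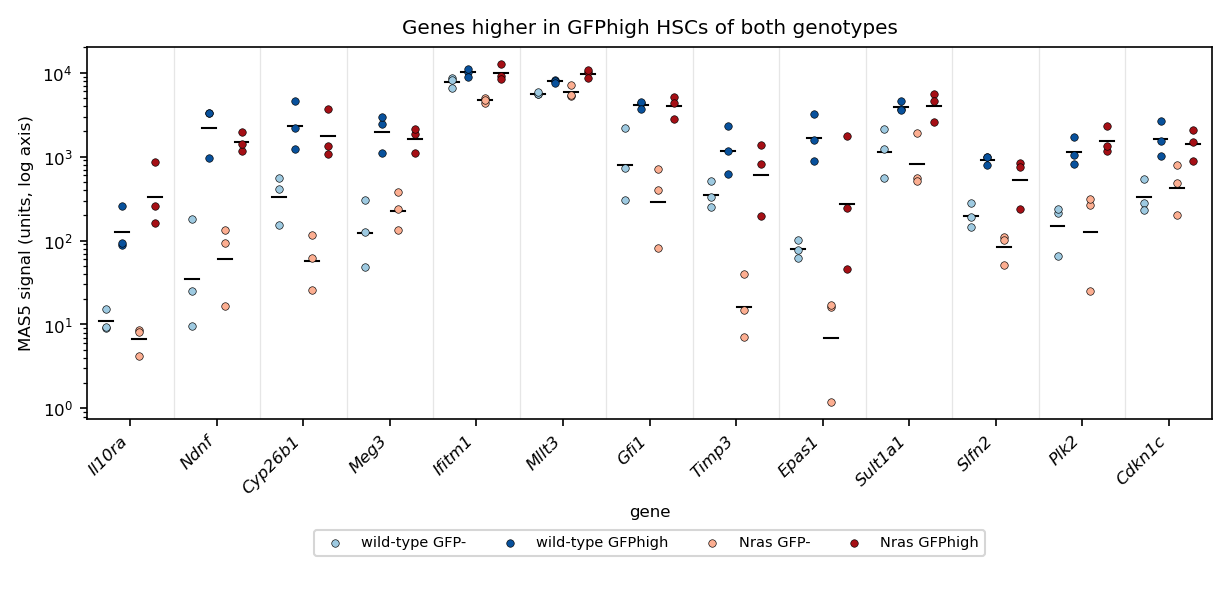
Signals of 13 agreeing genes on a log axis in each of the 12 arrays, with 4 groups per gene; bars are geometric means of 3 arrays. The rule for agreeing genes requires the 3 GFPhigh points to lie above the 3 GFP- points in each genotype. The margin is wide for Ndnf and Cyp26b1 and narrow for Ifitm1 and Mllt3.

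Gene lists drawn up by function place these genes. The lists, here and below, were chosen with earlier results of these data known, so their counts and shares are descriptions and not tests. Beside each list stand the counts over all tested genes, of which 6167 (51%) were higher and 5916 (49%) lower on average, with a median of 0.02. Of 25 imprinted genes tested, 18 were higher and 7 lower, 15 were higher in both genotypes, and the median was 0.77 (0.27 in wild-type, 0.95 in Nras cells). Without Nras GFP- replicate 2 it was 0.51. At an unadjusted p under 0.05, 6 were higher and none lower, against 4.36% and 4.51% of tested genes. Rian, a non-coding RNA of the same cluster as Meg3, read 17.6, 51.7 and 44.5 against 2487, 343 and 1487 units in wild-type. Nras arrays had 17.3, 84.9 and 93.6 against 81.8, 4333 and 2849 units, so 1 of the 3 GFPhigh arrays overlapped with GFP- arrays. Peg3, a paternally expressed zinc finger gene, read 3.8 to 30.4 against 22.7 to 261 units in wild-type and 3.1 to 16.6 against 529 to 694 units in Nras arrays. Both passed under array weights, at an adjusted p of 0.0315, although their groups overlap in 1 genotype. The 5 Peg3 probe sets spanned -0.92 to 4.80 and the 4 of Rian 0.16 to 5.54.

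HSC transcription factors were higher in 15 of 19, with 6 higher at an unadjusted p under 0.05 (31.6%, against 4.36% of tested genes). Their median was 0.21 (0.12 in wild-type, 0.25 in Nras cells). The median was 0.04 after median centring and 0.04 without Nras GFPhigh replicate 1. Beside Gfi1 and Mllt3, Lmo2, a bridging factor of HSC transcription complexes, read 8529, 11017 and 9311 against 10353, 11942 and 10076 units in wild-type, where the groups overlap. Its signals in Nras arrays were 9212 to 9959 against 11773 to 15522 units, and the average difference was 0.37 ± 0.09. HSC surface receptors were higher in 11 of 18, with a median of 0.22, which was 0.05 after median centring and 0.07 without Nras GFP- replicate 2. The unadjusted interaction p was under 0.05 for 4 of the 18 (22.2%), against 4.68% of all tested genes. This list held 1 agreeing higher gene, 1 agreeing lower gene and 1 that separated in opposite ways. Procr, the protein C receptor that marks long-term HSCs, read 3280, 3707 and 3923 against 5135, 8405 and 3408 units in wild-type and 1473, 2753 and 3013 against 5916, 7777 and 4766 units in Nras arrays. Its groups overlapped in wild-type and not in Nras cells (0.96 ± 0.25). Ifitm3, a relative of Ifitm1, differed by 0.52 ± 0.11, at 0.19 in wild-type and 0.85 in Nras cells.

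Quiescence regulators were higher in 17 of 26, with a median of 0.24 (0.07 after median centring, 0.14 without Nras GFP- replicate 2). At an unadjusted p under 0.05, 3 were higher (11.5%, against 4.36% of tested genes). Ndn, an imprinted growth suppressor, read 1360, 1600 and 1701 against 3709, 2329 and 3218 units in wild-type and 737 to 2006 against 2004 to 4310 units in Nras arrays (1.06 ± 0.31), and its 8 probe sets spanned -0.46 to 3.40. Egr1, an immediate early transcription factor that keeps HSCs in the niche, read 5209 to 8054 against 7754 to 9265 units in wild-type and 6303 to 10726 against 10140 to 18004 units in Nras arrays (0.59 ± 0.18). The groups of Ndn overlapped slightly in Nras cells and those of Egr1 in both genotypes. Foxo1, a factor that protects HSCs from oxidative stress, had opposite signs, 2.35 in wild-type and -0.60 in Nras cells, with an interaction of -2.94 (95% interval -5.26 to -0.63), and its probe sets spanned -0.43 to 0.95. Immediate early genes, which also respond to cell dissociation, were higher in 19 of 24 with a median of 0.51. That median dropped to 0.29 with Nras GFPhigh replicate 1 removed, and to 0.28 with wild-type GFP- replicate 2 removed instead. Klf6 was the agreeing gene among them, at 2679 to 3865 against 5034 to 5527 units in wild-type and 3603 to 4405 against 5817 to 10411 units in Nras arrays (0.79 ± 0.17).

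CDK inhibitors, of which Cdkn1c is 1, were higher in 4 of 6. Cdkn1a, which encodes p21 and is a p53 target, read 78.2, 89.5 and 210 against 795, 90.8 and 173 units in wild-type and 30.7, 36.8 and 868 against 3112, 135 and 510 units in Nras arrays. Its spread within a group exceeded the difference of 1.81 ± 1.0, and its other probe set gave -0.67. Cdkn2c, which encodes p18, was lower at -1.49 ± 0.78, again with overlapping groups. The p53 targets as a list were higher in 12 of 20, with a median of 0.16 that was -0.01 after median centring.

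Of 19 retinoic acid genes on the array, 11 passed the filter on low signal. Of these 11, 7 were higher, with 4 higher at an unadjusted p under 0.05 (36.4%, against 4.36% of tested genes). Their median was 0.74. A stricter filter on low signal turned that median to -0.14, and it was 1.25 without Nras GFPhigh replicate 2. Beside Cyp26b1, the receptor gene Rara read 24, 29.1 and 28 against 151, 1155 and 140 units in wild-type, where the groups were apart, and 21.1, 56.3 and 158 against 48.8, 320 and 43.8 units in Nras arrays, where they overlapped. Rxra, the partner receptor, read 186 to 450 against 459 to 555 units in wild-type and 13.4 to 169 against 149 to 454 units in Nras arrays (1.71 ± 0.65). Its 3 probe sets spanned -0.00 to 1.71.

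MHC class II presentation genes were higher in 7 of 9, with a median of 0.32 that was 0.03 without the 4 arrays of lowest weight and 0.19 without wild-type GFP- replicate 2, and this list holds agreeing genes of both directions. H2-DMb2, a chain of the H2-DM chaperone that loads peptide, read 451, 223 and 33.2 against 2019, 859 and 704 units in wild-type and 188, 92.4 and 243 against 1010, 671 and 475 units in Nras arrays (2.46 ± 0.66). Its 3 probe sets spanned 0.14 to 2.46. H2-Ob, a chain of the H2-O protein that inhibits H2-DM, was the reverse. It read 450, 1059 and 193 units in wild-type GFP- and 51.2, 5.6 and 61.6 in wild-type GFPhigh arrays. In Nras cells it read 1073, 2117 and 525 against 1.2, 19.7 and 14.6 units. The highest GFPhigh array of the 6 stood at 61.6 units and the lowest GFP- array at 193, and the difference was -5.68 ± 0.89 (unadjusted p = 2.49e-05, limma adjusted p = 0.0754). With 100 units added it was -2.73. Cd74, the invariant chain of class II, was at 1.18 ± 0.51 with overlapping groups.

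The 80 genes that agreed as lower made up 0.662% of tested genes. Their average differences were 0.43 to 5.68 in size on the log2 scale, with a median of 1.41, and 77 of them had a mean of at least 200 units over the 6 GFP- arrays. Of these 80, 10 belong to the 176 tested genes of the cell cycle and repair lists described next. None of the 69 agreeing higher genes does, but these make up 0.571% of tested genes, so a count of 0 in 176 is near their share.

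The cell cycle and repair lists, which follow DNA replication, mitosis and DNA damage repair, had 130 of 176 genes (73.9%) lower in both genotypes, 5 higher in both and 41 of opposite sign. Among all other tested genes 3160 of 11907 (26.5%) were lower in both. At an unadjusted p under 0.05, 56 of the 176 genes (31.8%) were lower in GFPhigh cells, against 489 (4.11%) of the others, and the medians were -1.04 and 0.03. Within replicates 1 and 2 the list medians were -1.36 for spindle, -0.61 for mitotic, -0.84 for licensing, -0.68 for fork, -0.70 for nucleotide and -1.02 for repair genes. Without the 4 arrays of lowest weight, which leaves 1 Nras GFPhigh array, assumed to vary like the other groups, they were -1.02, -0.57, -0.72, -0.68, -0.65 and -0.60 in the same order, all still below 0. The unadjusted interaction p was under 0.05 for 10 of the 176 (5.68%), against 4.68% of all tested genes. The lists overlap in function, their genes are known to vary together, and no set test was run. In bulk RNA, fewer cells of a type and less RNA per cell cannot be told apart. The share of dividing cells in each sorted sample was not measured here.

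**Figure D3:**
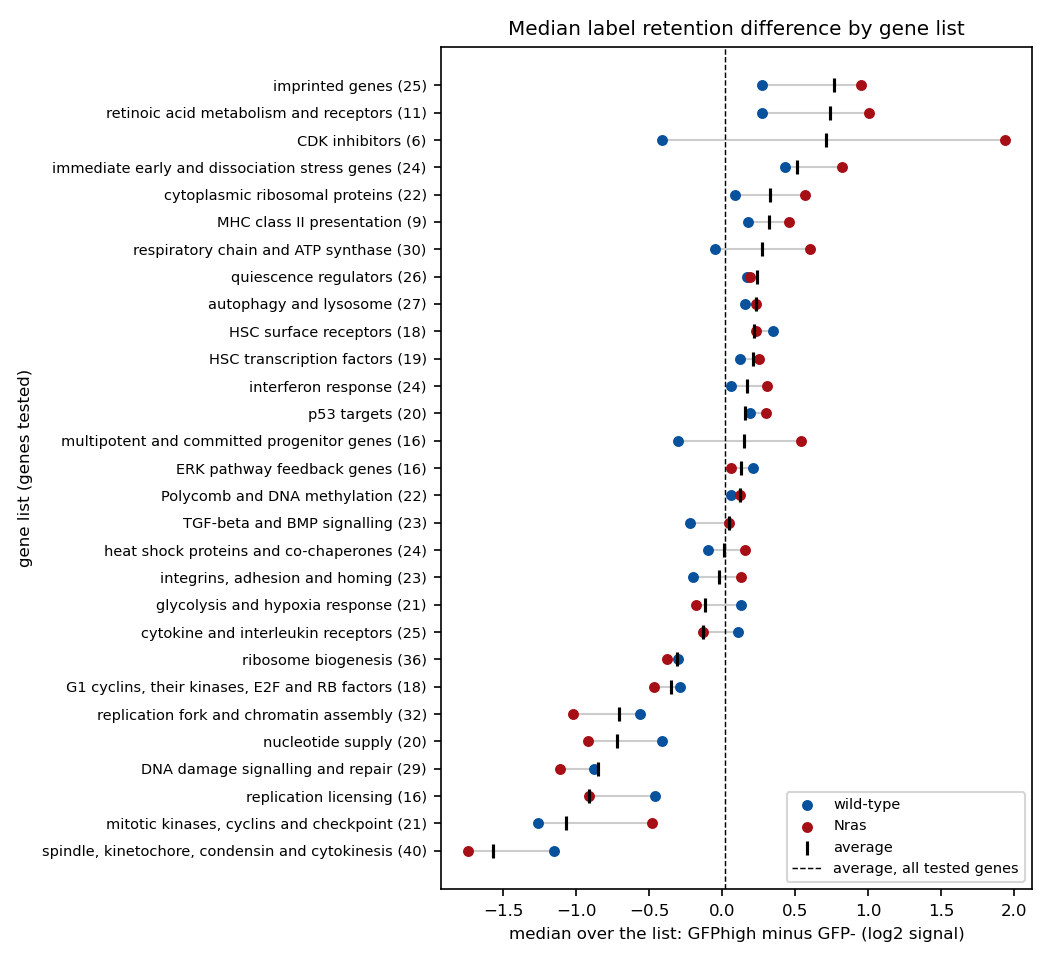
Median GFPhigh minus GFP- difference in log2 signal of each functional gene list, with the number of genes tested in brackets, in wild-type, in Nras cells and on average. Spindle, mitotic, licensing, repair, nucleotide and fork lists lie left of the median over all tested genes in both genotypes, imprinted genes lie right of it in both, and CDK inhibitors, of which 6 were tested, lie on opposite sides.

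Promoters of some of these genes carry short elements of known cell cycle regulation. NF-Y binds the CCAAT box, MuvB complexes bind the CHR element TTTGAA in mitotic genes, and E2F factors bind sites in replication genes, searched here as TTTCCCGC, TTTGGCGC, TTTCGCGC and TTTGCCGC. The 6 promoters below are shown for genes of the spindle, mitotic and licensing lists and for the agreeing gene Ezh2, as the 120 bases before the RefSeq transcription start (GRCm38.p6, 5′ to 3′ on the gene's strand), with matches on either strand in capitals. Cdk1 lies at chr10:69352913-69353032 (minus strand), Top2a at chr11:99024190-99024309 (minus), Hmmr at chr11:40733438-40733557 (minus), Ncapd2 at chr6:125191587-125191706 (minus), Mcm5 at chr8:75109389-75109508 (plus) and Ezh2 at chr6:47595031-47595150 (minus).
Cdk1: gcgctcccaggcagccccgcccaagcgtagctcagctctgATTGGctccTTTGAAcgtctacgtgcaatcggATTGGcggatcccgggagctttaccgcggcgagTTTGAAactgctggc
Top2a: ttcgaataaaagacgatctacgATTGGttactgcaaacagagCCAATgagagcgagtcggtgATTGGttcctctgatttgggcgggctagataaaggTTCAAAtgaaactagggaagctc
Hmmr: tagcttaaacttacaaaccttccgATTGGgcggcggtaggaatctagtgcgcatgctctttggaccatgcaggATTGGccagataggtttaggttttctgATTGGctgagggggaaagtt
Ncapd2: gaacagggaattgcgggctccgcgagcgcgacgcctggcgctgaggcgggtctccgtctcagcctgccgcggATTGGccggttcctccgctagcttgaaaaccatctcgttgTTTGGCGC
Mcm5: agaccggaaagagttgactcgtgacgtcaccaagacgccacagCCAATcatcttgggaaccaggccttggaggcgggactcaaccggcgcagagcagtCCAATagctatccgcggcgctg
Ezh2: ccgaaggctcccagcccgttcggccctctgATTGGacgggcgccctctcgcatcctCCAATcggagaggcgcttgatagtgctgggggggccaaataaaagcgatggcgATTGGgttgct
ATTGG is CCAAT and TTCAAA is TTTGAA on the other strand. The Cdk1 window holds 2 CCAAT boxes and 2 TTTGAA elements, Top2a 3 and 1, Hmmr and Ezh2 3 CCAAT boxes each, Mcm5 2, and Ncapd2 1 CCAAT box and the E2F form TTTGGCGC. Over the 250 bases before the start, CCAAT was found in 14 of 17 promoters (82.4%) of mitotic kinase and checkpoint genes and 22 of 34 (64.7%) of spindle genes, against 36.2% of 9803 tested genes and 34.5% of all 27025 promoters. CCAAT together with TTTGAA was in 41.2% and 26.5% of those lists, against 4.1% of tested genes and 5.73% of all promoters. In the other lists CCAAT was in 57.1% of licensing, 56% of fork, 45.8% of repair, 45% of nucleotide and 38.5% of G1 promoters. The pair of elements was in 15.4% of G1, 12% of fork, 7.14% of licensing and 0% of nucleotide and repair promoters. An E2F form was in 6 of 14 promoters (42.9%) of licensing genes, 3 of 25 (12%) of fork genes and 3.47% of tested genes (1.91% of all promoters). It was in 30.8% of G1, 16.7% of repair, 11.8% of mitotic, 5.88% of spindle and 5% of nucleotide promoters. Agreeing lower genes held CCAAT in 33 of 70 promoters (47.1%) and agreeing higher genes in 22 of 54 (40.7%). A match shows letters in a window, not binding.

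Replication licensing genes load the MCM helicase at origins. Of 16 tested, 14 were lower and 2 higher, 12 were lower in both genotypes, 7 were lower at an unadjusted p under 0.05 (4.51% of tested genes), and the median was -0.91 (-0.46 in wild-type, -0.91 in Nras cells). Mcm5, a helicase subunit, read 4320, 3346 and 3910 units in wild-type GFP- and 2648, 1239 and 1597 in GFPhigh arrays. The Nras cells had 5849, 3825 and 5131 against 3072, 1750 and 2904 units. The groups were apart in both genotypes, the difference was -1.05 ± 0.25, and it was alike in size, at -1.14 in wild-type and -0.96 in Nras cells, with an interaction of 0.18 (95% interval -0.88 to 1.25). All 3 Mcm5 probe sets were lower, from -3.05 to -1.05. Orc2, of the origin recognition complex, read 1275 to 2296 against 551 to 1216 units in wild-type and 1459 to 2255 against 116 to 592 units in Nras arrays (-1.74 ± 0.47), though 1 of its 3 probe sets gave 0.04. Mcm7, another helicase subunit, was at -0.27 in wild-type with overlapping groups and at -1.58 in Nras cells.

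Fork and chromatin assembly genes, which copy DNA and package it, were lower in 29 of 32, with 23 lower in both genotypes. At an unadjusted p under 0.05, 12 were lower (37.5%, against 4.51% of tested genes), and the median was -0.71 (-0.56 in wild-type, -1.02 in Nras cells). Without probe sets that can bind transcripts of several genes the median was -1.08. Uhrf1, which carries DNA methylation through replication, read 1074, 438 and 1478 against 805, 44.3 and 409 units in wild-type and 924, 1678 and 1862 against 36, 375 and 170 units in Nras arrays (-2.65 ± 0.78). Its groups overlapped in wild-type, and its 2 probe sets gave -2.65 and -0.23. Wdhd1, which links polymerase alpha to the helicase, differed by -2.18 ± 0.61, likewise with overlap in wild-type. Lig1, the ligase that joins Okazaki fragments, shows the other pattern: it read 3808, 4094 and 2652 against 3751, 4261 and 2636 units in wild-type, a difference of 0.01, and 7440, 3840 and 5184 against 47.1, 294 and 859 units in Nras cells, a difference of -4.53. Its interaction was -4.54 (95% interval -6.93 to -2.16), so the average of -2.26 does not describe wild-type cells. Atad2, a bromodomain ATPase of replicating chromatin that is not a member of this list, was an agreeing gene with unequal sizes. It read 2973, 2880 and 4132 against 1721, 2839 and 2692 units in wild-type, where the gap between the groups was small, and 6631, 4011 and 4916 against 355, 291 and 2001 units in Nras cells.

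Nucleotide supply genes were lower in 17 of 20, with 14 lower in both genotypes and a median of -0.72. Rrm1, the large subunit of ribonucleotide reductase, read 4373, 5143 and 5248 against 4250, 2226 and 3093 units in wild-type, and 5131, 6100 and 6982 against 5190, 2282 and 3029 units in Nras arrays, where 1 GFPhigh array reached the GFP- range. Its 3 probe sets spanned -0.84 to 1.07. Dut, which removes dUTP, was at -0.26 in wild-type and -1.25 in Nras cells. Dctpp1, which degrades modified dCTP, agreed, at 3814 to 4281 against 1271 to 3027 units in wild-type and 1589 to 4681 against 10.4 to 710 units in Nras arrays (-2.58 ± 0.87).

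G1 cyclins, their kinases and the E2F and RB factors were mixed, with 13 of 18 lower and a median of -0.35, which was -0.23 without Nras GFP- replicate 3. Cdk6, the kinase whose level sets how fast HSCs leave quiescence, was the agreeing gene of the list. It read 2323, 2317 and 2961 against 680, 649 and 1537 units in wild-type and 2771, 4694 and 4265 against 1969, 541 and 1808 units in Nras arrays. The difference was -1.57 ± 0.38, nearly the same in wild-type (-1.52) and Nras cells (-1.62), and its 3 probe sets gave -2.63 to -1.57. E2f8, an atypical E2F repressor, differed by -2.44 ± 0.81, with 1 or more overlapping arrays in Nras cells. Ccnd2, cyclin D2, a partner of Cdk6, was higher at 0.36 ± 0.14, at 5529 to 6716 against 6389 to 8145 units in wild-type and 6206 to 9189 against 8617 to 12706 units in Nras arrays, with overlap in both. Its 7 probe sets spanned -0.04 to 0.40.

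Mitotic kinases, cyclins and checkpoint genes were lower in 21 of 21, 17 of them in both genotypes, with a median of -1.07 (-1.26 in wild-type, -0.48 in Nras cells), which was -0.69 without Nras GFP- replicate 3. At an unadjusted p under 0.05, 4 of the 21 (19%) were lower, against 4.51% of tested genes. None was an agreeing gene, where agreeing lower genes made up 0.662% of tested genes. Cdk1, the kinase that drives mitosis, was lower on average in both genotypes, with overlap in Nras cells. In wild-type it read 459, 440 and 472 against 150, 67.8 and 177 units, with no overlap. Nras arrays read 565, 451 and 860 against 107, 549 and 230 units, where GFPhigh replicate 2 lay among the GFP- arrays, and the average was -1.63 ± 0.53, with an interaction of 0.57 (95% interval -1.72 to 2.87). Cks2, a small subunit of CDK complexes, read 3923, 5615 and 2242 against 1301, 408 and 1828 units in wild-type and 1143, 6174 and 4946 against 411, 2263 and 518 units in Nras arrays (-1.97 ± 0.57). Mki67, which encodes the proliferation antigen Ki-67 and is counted in the spindle list below, was at -1.38 ± 0.84. It read 5105, 3793 and 4461 against 4041, 51.6 and 2090 units in wild-type, and 7996, 3629 and 7084 against 5951, 10165 and 2206 units in Nras cells, where GFPhigh replicate 2 was the highest array of the 12. Mybl2, a transcription factor that joins the MuvB complex, was low on most arrays and differed by -3.53 ± 1.15, or -1.17 with 100 units added.

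Spindle, kinetochore, condensin and cytokinesis genes were lower in 39 of 40, 36 of them in both genotypes (90%, against 27.2% of all tested genes), with a median of -1.57 (-1.15 in wild-type, -1.74 in Nras cells). At an unadjusted p under 0.05, 16 were lower (40%, against 4.51% of tested genes). Ncaph, a condensin subunit, agreed, reading 212, 120 and 170 against 90.1, 10.9 and 46 units in wild-type and 553, 317 and 441 against 63.6, 157 and 39.8 units in Nras arrays (-2.36 ± 0.63). Ncapd2, another condensin subunit, differed by -2.62 ± 0.76 and Hmmr, a spindle protein, by -2.35 ± 0.76, each with overlap in 1 genotype. The 5 Hmmr probe sets spanned -2.35 to -0.03. Top2a, the topoisomerase that untangles chromosomes before they separate, read 1658, 879 and 1235 against 783, 387 and 580 units in wild-type, with no overlap, and 1856, 627 and 3142 against 666, 470 and 614 units in Nras arrays, with overlap of 1 array (-1.27 ± 0.46). Its 3 probe sets spanned -1.27 to -0.28.

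**Figure D4:**
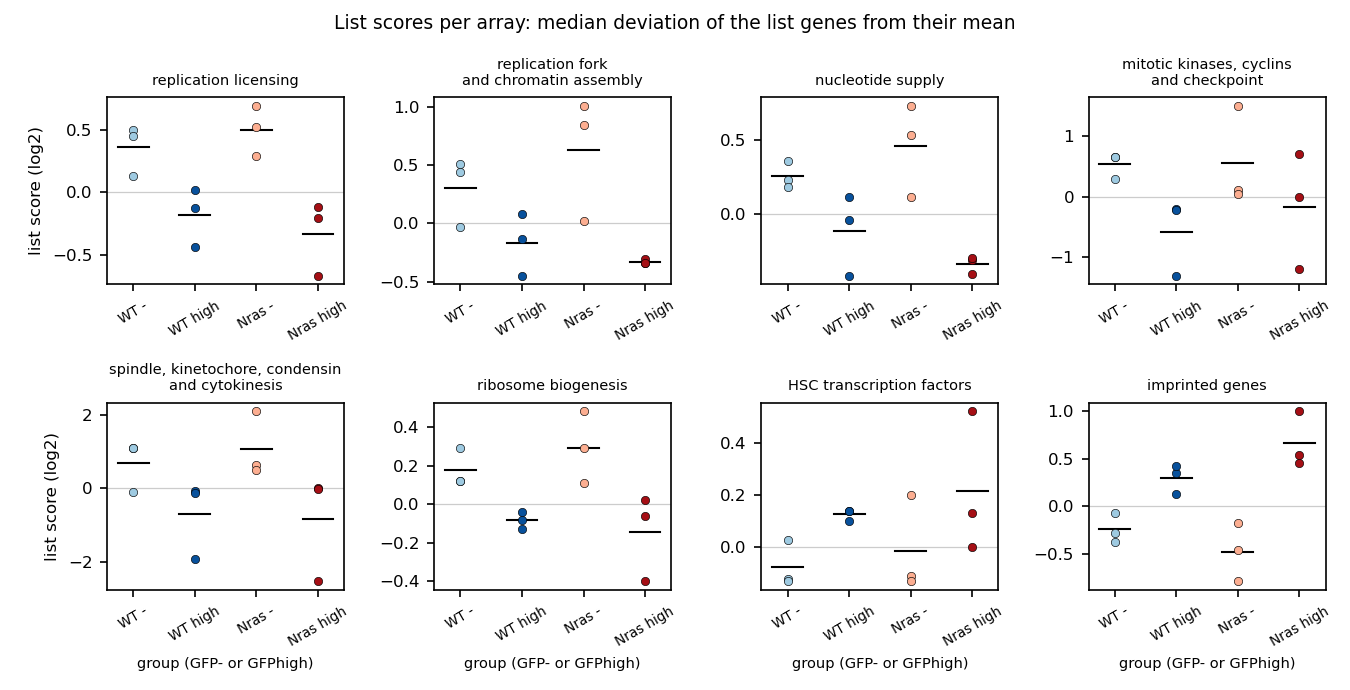
List score in each of the 12 arrays, the median over a list's genes of each gene's log2 signal minus its mean over all arrays; points are arrays and bars are means of 3. Licensing, nucleotide, ribosome biogenesis and imprinted gene scores do not overlap between GFP- and GFPhigh in either genotype, while mitotic scores overlap in Nras cells, where a GFPhigh array reads 0.70.

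The list score makes the spread between arrays visible. For licensing genes it was 0.13 to 0.50 in wild-type GFP- and -0.44 to 0.02 in GFPhigh arrays, and 0.29 to 0.69 against -0.67 to -0.12 in Nras arrays. For mitotic kinases it was 0.29 to 0.66 against -1.31 to -0.21 in wild-type and 0.04 to 1.5 against -1.19 to 0.70 in Nras arrays. Licensing scores were thus apart in both genotypes, while mitotic scores were apart in wild-type and overlapped in Nras arrays. For spindle genes the scores were -0.10 to 1.10 against -1.92 to -0.06 in wild-type and 0.49 to 2.10 against -2.54 to 0.02 in Nras arrays, so the wild-type groups overlapped a little.

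DNA damage and repair genes were lower in 26 of 29, with 18 lower in both genotypes and a median of -0.85. At an unadjusted p under 0.05, 8 were lower (27.6%, against 4.51% of tested genes). Chek1, the checkpoint kinase of stalled forks, read 868, 721 and 800 against 889, 401 and 229 units in wild-type and 550, 1478 and 1309 against 14.3, 8.2 and 173 units in Nras arrays. Its groups overlapped in wild-type, and the interaction was -4.35 (95% interval -7.51 to -1.19). Exo1, a nuclease of mismatch repair and end resection, differed by -2.04 in wild-type and -6.08 in Nras cells. Lig4, the ligase of end joining, had the opposite balance, -8.25 in wild-type, where GFPhigh arrays read 0.6 to 1 units, and -2.45 in Nras cells. With 100 units added its average of -5.35 became -1.09.

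Agreeing lower genes outside these lists are given next. Ezh2, the histone H3 lysine methyltransferase of Polycomb repressive complex PRC2, read 2416, 2247 and 2114 units in wild-type GFP- and 385, 538 and 937 in GFPhigh arrays. Mutant cells had 1197, 2389 and 2877 against 840, 262 and 556 units. The groups were apart in both genotypes, and the difference of -1.99 ± 0.42 was -1.96 in wild-type and -2.02 in Nras cells (interaction -0.06, 95% interval -1.87 to 1.75). Suz12, its partner in PRC2, differed by -0.86 ± 0.28 and Dnmt3b, a DNA methyltransferase, by -1.25 ± 0.43. The 6 Suz12 probe sets spanned -1.38 to -0.01. By contrast, the Polycomb and DNA methylation list as a whole was higher in 15 of 22 with a median of 0.12, which was -0.02 without Nras GFP- replicate 1. Runx3, a Runt family transcription factor, read 2969, 1935 and 2673 against 609, 542 and 1675 units in wild-type and 2881, 3969 and 3982 against 621, 1884 and 1347 units in Nras arrays. Its difference of -1.61 ± 0.38 was again even, -1.60 and -1.62, though its other probe set gave 0.60. Add3, gamma adducin of the membrane skeleton, read 1944 to 2487 against 497 to 1014 units in wild-type and 2220 to 5828 against 85.4 to 969 units in Nras arrays (-2.33 ± 0.55), and all 4 of its probe sets were lower.

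Mfsd2b, the sphingosine 1-phosphate exporter of red cells and platelets, read 204, 631 and 229 against 182, 3.6 and 16.4 units in wild-type and 2180, 671 and 1198 against 195, 32.1 and 8.4 units in Nras arrays (-4.41 ± 0.98, or -2.25 with 100 units added). Lage3, of the tRNA-modifying KEOPS complex, read 1735 to 2553 against 577 to 1647 units in wild-type and 2331 to 4501 against 368 to 1120 units in Nras arrays (-1.63 ± 0.39). A pair of nuclear genes agreed in direction with very unequal sizes. Nrm, an inner nuclear membrane protein, was at -0.99 in wild-type and -5.95 in Nras cells, with an interaction of -4.96 (95% interval -8.23 to -1.69), and its other probe set was at 0.75. Ddx19b, an RNA helicase of mRNA export, was at -0.74 and -4.07, with an interaction of -3.33 (95% interval -5.67 to -0.99). The averages of its 3 probe sets spanned -2.40 to -0.04.

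Ribosome biogenesis factors, which build ribosomes in the nucleolus, were lower in 29 of 36, with 24 lower in both genotypes and a median of -0.31 (-0.30 in wild-type, -0.38 in Nras cells). At an unadjusted p under 0.05, 6 were lower (16.7%, against 4.51% of tested genes). Gnl3, nucleostemin, read 2417, 3429 and 2594 against 920, 1312 and 2358 units in wild-type and 3208, 2351 and 2983 against 966, 1284 and 969 units in Nras arrays (-1.19 ± 0.29). Wdr12, of the PeBoW complex of large subunit maturation, read 3718, 4625 and 4111 against 2934, 3363 and 2623 units in wild-type and 6283, 4262 and 4034 against 2410, 1732 and 692 units in Nras arrays (-1.11 ± 0.29, with 3 probe sets from -1.11 to -0.27). Both agreed, and Nolc1, a nucleolar phosphoprotein, was lower at -1.24 ± 0.30 with overlap of 1 Nras array. Cytoplasmic ribosomal protein genes were higher in 20 of 22, with 18 higher in both genotypes and a median of 0.33 (0.09 in wild-type, 0.57 in Nras cells). At an unadjusted p under 0.05, 15 were higher (68.2%, against 4.36% of tested genes). The median depended on processing, at 0.06 after quantile normalisation and -0.07 without shared probe sets. The respiratory chain list had a median of 0.27, at -0.05 in wild-type and 0.60 in Nras cells, which was 0.05 without Nras GFPhigh replicate 2 and -0.06 without the 4 arrays of lowest weight.

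**Figure D5:**
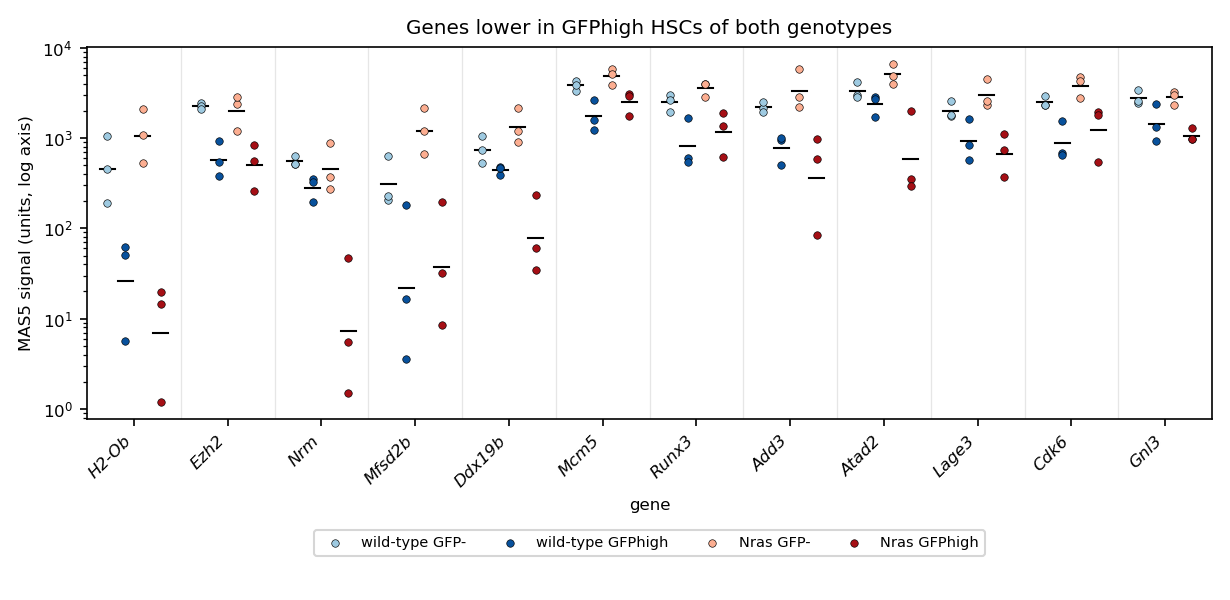
Signals of the 12 named agreeing lower genes on a log axis in each of the 12 arrays, with 4 groups per gene; bars are geometric means of 3 arrays. The rule for agreeing genes requires the 3 GFPhigh points to lie under the 3 GFP- points in each genotype. The gap is narrow for Atad2 in wild-type and wide for H2-Ob in both.

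Genes outside the naming rule fill in the agreeing lower set, picked here for their functions after their values were seen. Spag5, a spindle protein, differed by -3.79, the kinetochore gene Cenpk by -3.02, and Bora, an activator of mitotic kinases, by -3.24. Nasp, a histone chaperone, differed by -2.20, Ung, which removes uracil from DNA, by -2.50, and Dtl, which marks replication proteins for degradation, by -1.90. The repair genes Xrcc3, Rad18 and Mre11a stood at -2.13, -1.91 and -1.59. Stat5a, a transducer of cytokine signals, was lower by a small amount at -0.50. In the agreeing higher set, picked in the same way, were Hmga2 at 2.88, a chromatin protein of self-renewing stem cells, Pdk4 at 3.67, a kinase that restrains pyruvate oxidation, Gas6 at 1.93, a ligand of TAM receptors, and Bmp4 at 2.22. Pik3r1, the regulatory subunit of phosphoinositide 3-kinase, was higher by 0.60 and Itm2b by 0.42.

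Progenitor genes were not lower as a list, with 9 of 16 higher and a median of 0.15, which was -0.41 without the 4 arrays of lowest weight and -0.32 without Nras GFP- replicate 1. Cd34, which is low on long-term HSCs of adult mice, read 3537, 2987 and 2050 against 417, 1506 and 805 units in wild-type, with no overlap, and 1343, 3987 and 3182 against 86.2, 433 and 1578 units in Nras arrays, with overlap of 1 array (-2.27 ± 0.63). Flt3, a receptor of multipotent progenitors, read 526, 302 and 460 against 103, 70.7 and 316 units in wild-type, and 236, 540 and 94.1 against 8.2, 11.7 and 555 units in Nras arrays. Cytokine receptors were near the background, with 12 of 25 higher and a median of -0.13, which was 0.16 without wild-type GFPhigh replicate 2. Adhesion, TGF-beta, ERK feedback, glycolysis, interferon, heat shock and lysosome lists had medians from -0.12 to 0.23.

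Markers of other blood and marrow cells read higher in GFPhigh arrays of Nras cells for several lineages. The granulocyte list had medians of -1.30 in wild-type and 3.99 in Nras cells, the erythroid list -0.89 and 1.88, and the endothelial and stromal list -0.71 and 2.35, so their averages (1.26, 0.30 and 0.21) join opposite signs. The granulocyte average was 0.57 without wild-type GFP- replicate 2, the erythroid one -0.38 without Nras GFP- replicate 1 and -0.65 without the 4 arrays of lowest weight, and the stromal one -0.05 without Nras GFPhigh replicate 2. Ltf, a secondary granule gene, read 20.6 to 1413 against 31.5 to 708 units in wild-type and 7.3 to 45.1 against 903 to 6600 units in Nras arrays. Monocyte markers were low, with 5 of 13 under 100 units on every array and summed signals of 297 to 861 units outside Nras GFPhigh arrays and 1562 to 2626 in them. B cell markers were higher in 6 of 6 tested, 5 of them in both genotypes (83.3%, against 28.2% of all tested genes). Their median was 1.60 (1.60 in wild-type, 1.21 in Nras cells), or 0.57 with 100 units added. The B cell markers on the array summed to 471 to 1329 units in GFP- and 597 to 3963 in GFPhigh arrays, with 3 of 11 under 100 units everywhere. Megakaryocyte markers, of which HSCs express several, were lower in 8 of 10 with a median of -0.81, which was -0.25 without wild-type GFPhigh replicate 2. Itga2b, integrin alpha IIb, was an agreeing gene among them, at 386 to 580 against 51.4 to 260 units in wild-type and 411 to 799 against 67.5 to 304 units in Nras arrays. T and NK cell markers summed to 1956 to 4866 units in GFP- and 3712 to 7070 in GFPhigh arrays, most of it from Cd247, and mast cell markers had a median of 0.04.

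The measured size of the difference was often larger in Nras cells. The Nras difference exceeded the wild-type difference in size for 7820 of 12083 genes (64.7%) and for 128 of the 149 agreeing genes (85.9%). Nras arrays were also the more uneven ones: limma's array weights were 0.308 to 1.58 for them and 0.522 to 2.46 for wild-type arrays. Larger scatter alone can enlarge a measured difference, and its part in these counts was not tested. In the test of the interaction, limma with Benjamini-Hochberg adjustment passed 0 of 12083 genes, and 566 (4.68%) had an unadjusted p under 0.05. Among agreeing genes, 5 of 69 higher and 4 of 80 lower had an unadjusted interaction p under 0.05, which does not show that the others respond equally: the 95% interval of the interaction was -0.74 to 4.86 for Il10ra, -1.06 to 3.88 for Gfi1 and -6.97 to 0.72 for H2-Ob.

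Genes with the smallest interaction p were those that the average hides. Usp27x, a ubiquitin-specific protease, read 982, 326 and 256 against 2330, 4343 and 1739 units in wild-type, and 956, 1838 and 1338 against 57.7, 94.4 and 149 units in Nras arrays. It was thus higher in GFPhigh wild-type cells and lower in GFPhigh Nras cells, with no overlap either way. Dnpep, an aspartyl aminopeptidase, was at 0.70 in wild-type and -2.29 in Nras cells, and Fancb, of the Fanconi anaemia core complex, at 1.81 and -5.97. The 5 Dnpep probe sets spanned averages of -0.80 to 0.58, and the 2 of Fancb -2.08 to 0.06. Sparc, a matrix protein of stroma, and Cd177, a neutrophil surface protein, went the other way, lower in wild-type (-3.92 and -2.89) and higher in Nras cells (4.02 and 4.81). Fgd5, a gene of long-term HSCs, also separated in opposite ways, at 988 to 1117 against 1741 to 2057 units in wild-type and 705 to 880 against 219 to 653 units in Nras arrays.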

How the data were processed

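RNA of 12 sorted HSC samples was hybridised to Affymetrix Mouse Genome 430 2.0 arrays. The authors' deposited table holds 1 intensity per probe set and array, the MAS5 signal, per the submitters' processing notes. Its scale is linear and every array has a 2% trimmed mean of 500, as checked on the values, and no detection calls were used here. Of 45101 probe sets, 34945 carried 1 gene symbol, 932 several and 9160 none, in GEO's platform annotation. Signals were floored at 0.1 (3 values were listed at 0) and taken to log2. The probe set of highest mean log2 signal stood for a gene, and genes above the array median in at least 3 arrays were tested with limma 3.58.1 (R 4.3.3): a mean per group, 1 shared spread, eBayes with an intensity trend, and Benjamini-Hochberg adjustment. On simulated data of the average comparison over 12083 genes, log2 shifts of 2 and 4 in 200 genes were recovered for 27% and 75.2%, with 6.05% and 6.04% false calls. Correlations and counts used Python 3.11.15 with pandas 2.3.3. The text names the 12 agreeing genes of smallest p per direction with a mean of at least 200 units over the 6 arrays of the higher population, 3 genes per described list, fixed genes, 5 genes by interaction p and those called with array weights. Members and lists were chosen with earlier results of these data known. Alternatives were quantile normalisation, median centring, array weights, other filters, a pseudocount of 100, other probe set rules, a replicate block and leaving out arrays. Promoters are RefSeq's (GRCm38.p6), the first listed start per gene. The number of arrays limits the precision.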

Additional observations from a re-analysis of the deposited data

Results flagged for a closer look

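Usp27x, Sparc and Cd177 were among the 5 genes of smallest interaction p. In each of them all 3 arrays of the GFPhigh group moved one way in wild-type and the opposite way in Nras cells, as in 60 of 12083 tested genes (0.497%). The Nras minus wild-type difference was -6.42 for Usp27x (95% interval -8.57 to -4.26), 7.94 for Sparc (4.29 to 11.60) and 7.69 for Cd177 (3.97 to 11.42) on the log2 scale. In limma's interaction test none passed the Benjamini-Hochberg threshold, as for all 12083 genes tested. Sparc read 3.6 to 12.7 units in wild-type GFPhigh arrays and Cd177 1.4 to 11.3, near the floor of the array.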

How the results depend on the processing

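Depth of signal, with array medians of 44 to 130 units, limits low genes. The replication, mitosis and repair lists described kept medians below 0 under every alternative run, and leaving out an array widens the agreeing set because fewer arrays have to separate. Genes called in the average comparison (0) became 8 with array weights, 2 with median centring, 1 without a filter, 6 with a pseudocount of 100, 4 with the mean over probe sets, 1 without the intensity trend, 3 without the 4 arrays of low weight and 5 at an adjusted p of 0.1, and 0 to 16 when an array was left out (1 without wild-type GFP- replicate 2, 3 without Nras GFP- replicate 3, 16 without Nras GFPhigh replicate 3). Genes higher at an unadjusted p under 0.05 (527) became 235 with median centring, 276 with a 75th percentile filter and 815 without a filter; the lower ones (545) 359 to 799 when an array was left out. The wild-type comparison called 4 genes with array weights. The Nras comparison called 3 with median centring, 4 without the arrays of low weight and 0 to 161 when an array was left out, the 161 without Nras GFPhigh replicate 3, and the interaction 0 to 1.

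Agreeing higher genes (69) became 32 with median centring, 555 without the arrays of low weight and 513 with replicates 1 and 2 only, agreeing lower genes (80) 521 and 464 in the last pair, and opposite genes (60) 32 with median centring, 32 with the stricter filter, 109 without a filter, 644 and 580; leaving out an array gave 99 to 141, 100 to 153 and 81 to 129. Of the 149 agreeing genes, 55 also agreed after median centring and 106 after quantile normalisation. Pearson's r across genes (0.15) was 0.19 with array weights, 0.17 with the stricter filter, 0.11 without a filter, 0.13 without shared probe sets and 0.09 with replicates 1 and 2, and 0.11 to 0.16 when an array was left out. Spearman's rho (0.14) was 0.17, 0.09 without a filter, 0.12 without shared probe sets, 0.12 without the arrays of low weight and 0.10 with replicates 1 and 2, and 0.10 to 0.16. The share of same sign (55.4%) was 57% with array weights, 49.5% with median centring, 56.5% with the stricter filter, 53.4% without a filter, 54.5% without shared probe sets, 54% without the arrays of low weight and 54.4% with replicates 1 and 2, and 53.70 to 56.60.

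List medians moved as follows. Median centring, which shifts the median of all genes to -0.15, gave 0.05 for HSC surface receptors, -0.48 for ribosome biogenesis, -0.28 for glycolysis, -0.15 for heat shock, 0.07 for lysosome and -0.04 for Polycomb genes. Quantile normalisation gave 0.06 for ribosomal proteins and -0.10 for heat shock. Without shared probe sets, fork genes were at -1.08, ribosomal proteins at -0.07, glycolysis at 0.04, lysosome at -0.07 and HSC defining genes at 0.41. Array weights gave 0.05 for glycolysis. The mean over probe sets gave 0.21 for adhesion, 0.02 for glycolysis, -0.51 for ribosome biogenesis and 0.11 for lysosome. The stricter filter gave -0.14 for retinoic acid genes and 1.40 for stromal markers, and a pseudocount of 100 gave 0.51 for imprinted genes, -0.29 for megakaryocyte and 0.57 for B cell markers. Without the 4 arrays of low weight, which leaves 1 Nras GFPhigh array, assumed to vary like the other groups, quiescence regulators were at 0.47, ERK feedback at 0.51, ribosomal proteins at 0.11, glycolysis at 0.19, heat shock at -0.12 and HSC defining genes at 0.33. With replicates 1 and 2 only, ribosome biogenesis was at -0.50 and megakaryocyte markers at -1.30. Leaving out an array gave 0.07 to 0.29 for HSC surface receptors, 0.52 to 1.25 for retinoic acid genes, -0.16 to 0.19 for adhesion, 0.10 to 0.25 for lysosome, 0.51 to 0.97 for imprinted genes, -0.12 to 0.07 for glycolysis and -1.08 to -0.25 for megakaryocyte markers.

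Average differences changed sign for Zfp36l2 (-0.03, quantile), Rps24 (-0.42) and Dnpep (0.05) without shared probe sets, and Flt3 (0.04) and Cd177 (-0.05) without the arrays of low weight. Sparc, with opposite signs in the genotypes, was at -0.43 with array weights, -0.12 with median centring, -0.87 without the arrays of low weight and -0.45 to 0.56 when an array was left out. The cause of these changes was not tested. Same-numbered arrays were not taken as pairs, since the correlations of their deviations were -0.04 to 0.15, although replicate 3 differs from replicates 1 and 2 in Xist in every group. With the replicate block 0 genes were called, and 558 were higher and 561 lower at an unadjusted p under 0.05.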
